A study of Drosophila melanogaster with 6 samples.

Results

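The genes described here make, assemble and deacetylate chitin in Drosophila melanogaster. They were listed by symbol, with earlier results of these data known, as 10 genes. These were kkv and Chs2 for chitin synthases, mmy for the synthesis of the sugar donor and knk for chitin assembly. The others were serp, verm, Cda3, Cda4, Cda5 and Cda9 for chitin deacetylases. A probe set of its own measured 9 of the 10, out of 11982 genes measured in this way, and each of the 9 had exactly 1 such probe set. No probe set was named for Cda3, which was not analysed here.

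Chitin is a polymer of N-acetylglucosamine that stiffens insect cuticle. In the embryo it also forms a transient cable inside the tracheal tubes, the tubes that carry air to tissues. Cytosolic enzymes make UDP-N-acetylglucosamine, a chitin synthase in the apical membrane polymerises it outwards, membrane proteins order the fibres, and secreted deacetylases trim acetyl groups from the polymer. In tracheal tubes loss of the synthase or of the assembly factors gives irregular diameters, and loss of serp or verm gives overlong tubes. Epidermis, foregut and hindgut make chitin as well.

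RNA came from whole embryos of 2 genotypes, 3 arrays each. The first were trh null embryos, the mutants of trachealess, which encodes a bHLH-PAS transcription factor of tracheal and salivary duct precursors. They were sorted in a COPAS instrument as embryos without the GFP of the balancer chromosome. The second were wild type embryos, passed through the same instrument. The labels do not name the trh allele. Egg collections lasted 8 h and ageing another 11 h, and both genotypes carry the label of stages 11 to 16, while the sample description of the wild type arrays gives stage 17 as the last. The series title frames the comparison as a question of which tracheal genes depend on trh. No probe set measured trh alone, so the mutation was not checked on its own transcript. In whole embryos fewer cells of a type and less RNA per cell cannot be told apart. The labels leave unsaid whether replicate arrays hold RNA of different egg collections. A p-value here reflects array-to-array spread, which may be only technical.

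All values are RMA signals on the log2 scale, and the median signal of an array lay between 6.16 and 6.22. Wild type replicate 2 stood apart. It correlated with wild type replicates 1 and 3 at r = 0.979 and 0.976 over probe sets, against 0.994 between those 2. On it 976 probe sets differed by more than 1 on the log2 scale from the mean of the other wild type arrays, against 26 to 327 for each other array set against its own group. Control probe sets also differed between the genotypes. The 3′ minus 5′ log2 signal of actin averaged 0.76 ± 0.03 in trh null and 1.36 ± 0.09 in wild type embryos, and that of eIF-4a 1.12 ± 0.03 and 1.52 ± 0.10 (SD, n = 3 arrays each). The part of either difference in the results below was not tested. Of 7 tracheal marker genes, each by its brightest probe set, btl and apn fell in trh null embryos and 3 rose (dpy, dysf and uif). Beside each marker count over all 6 arrays, 7.31% of all genes fell and 6.79% rose by the test described below. Other probe sets differed: 1 of uif fell by 0.90 (limma adjusted p = 0.00698), 1 of dysf fell by 0.37 (0.0322) and 1 of vvl rose by 1.72 (0.0105). The dysf signal that rose lay below the array median on every array, and so did the uif and dysf signals that fell. The brightest uif signal, which rose by 0.42, lay at 9.38 to 9.95. Array means of the 7 genes were 7.51 to 7.82 in trh null and 8.09 to 8.45 in wild type embryos. The lower mean came from apn: without it, a choice made after seeing the data, the other 6 gave 7.83 to 8.07 in trh null and 7.50 to 7.99 in wild type embryos, and the median log2 difference of all 7 was 0.19. The signal of btl, the FGF receptor gene of tracheal cells, was 5.60, 5.62 and 5.58 in trh null embryos, below the array medians, and 7.14, 7.05 and 6.75 in wild type embryos, above them. Of 9 epidermal markers 2 rose and none fell, with means of 9.10 to 9.46 in trh null and 8.78 to 9.39 in wild type embryos. Of 8 foregut and hindgut markers 1 rose and none fell (9.11 to 9.23 in trh null and 8.80 to 9.18 in wild type embryos). Of 7 midgut markers 1 fell and none rose (7.25 to 7.74 in trh null and 7.56 to 7.60 in wild type embryos). Muscle markers moved more: 4 of 7 fell (Prm, up, Tm2 and Mlc1, by 0.78 to 1.51 on the log2 scale) and none rose. Array means of the 7 were 10.70 to 11.04 in trh null and 10.66 to 11.83 in wild type embryos, with a median log2 difference of -0.80. On the same list sls was higher by 1.53 in trh null embryos, with groups that did not overlap, and did not pass (limma adjusted p = 0.201). Without wild type replicate 2, 6 of 7 fell and sls rose, by 0.73 (adjusted p = 0.0241). Of all genes 14.8% fell and 17.4% rose in that fit. In it 1 epidermal marker fell and 2 rose, and 2 foregut and hindgut markers fell and 1 rose. The counts of tracheal and midgut markers did not change. The part of these shifts in the results on the chitin genes was not tested.

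In trh null embryos 2 of the 9 genes fell and none rose. The genes that fell were kkv, the chitin synthase of epidermis and trachea, and Cda4, a chitin deacetylase. The threshold was a Benjamini-Hochberg adjusted p under 0.05 over 18769 probe sets, from limma. By the same test 7.31% of all genes fell, 6.79% rose and 14.1% changed in either direction. The falls were modest, 1.36-fold for kkv and 1.97-fold for Cda4. In 8 of 9 genes the mean was lower in trh null embryos, beside 5966 of all 11982 genes. In 6 of 9 every trh null array lay below every wild type array, against 19.4% of all genes. A further 18.8% of all genes did not overlap in the opposite direction, which makes 38.2% in all. The median log2 difference, trh null minus wild type, was -0.25 over the 9 genes and 0.00 over all genes, whose quartiles were -0.19 and 0.21.

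**Figure D1:**
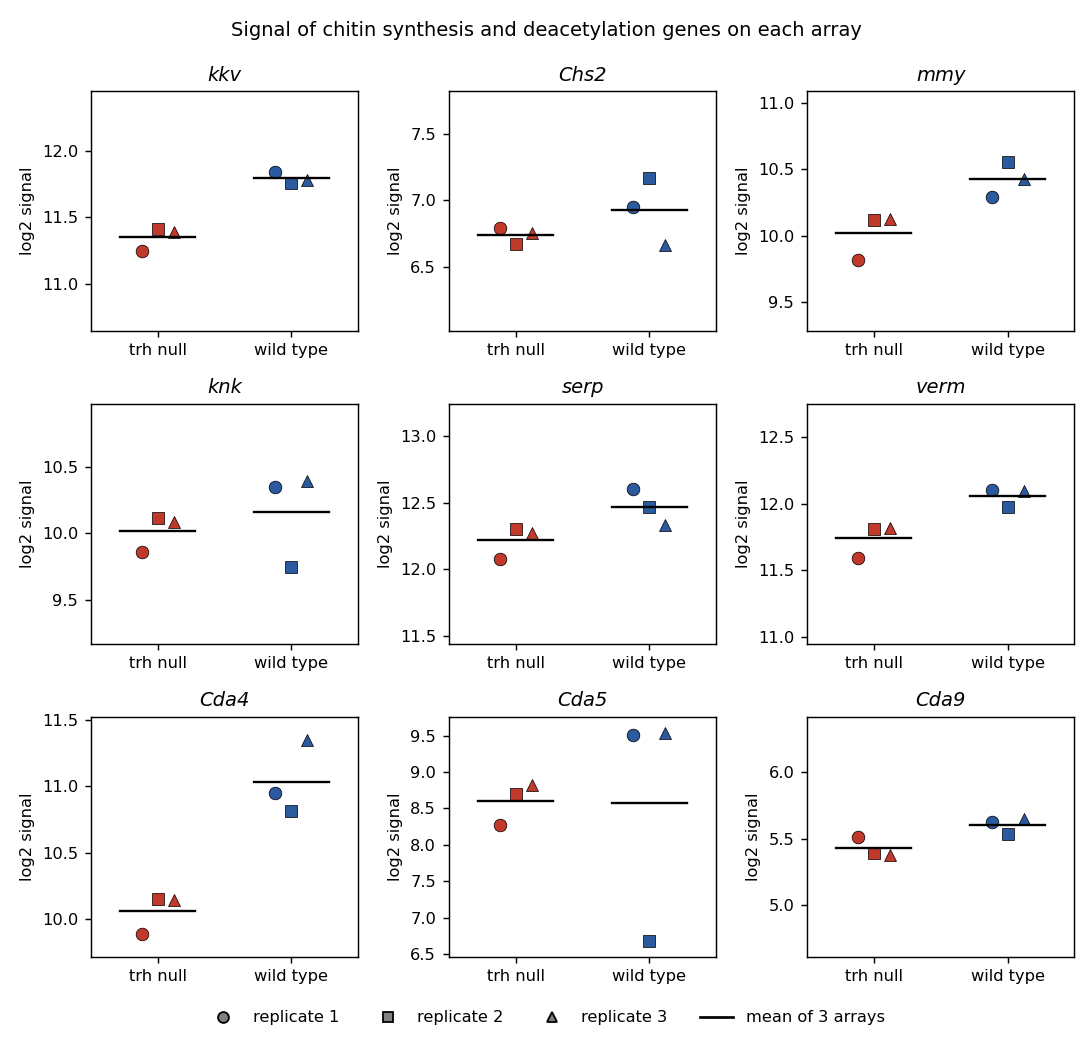
Each panel plots the log2 signal of 1 gene on the 3 trh null and the 3 wild type arrays, with a symbol per replicate number and a line at the mean of 3 arrays; panels have their own vertical range. The 2 genotypes do not overlap for kkv, mmy, serp, verm, Cda4 and Cda9, and wild type replicate 2 lies far below the other arrays for Cda5, at 6.68.

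Among the synthases, kkv encodes the enzyme that makes the chitin of ectodermal tissues. Its log2 signal was 11.25, 11.41 and 11.39 on the trh null arrays, against 11.84, 11.76 and 11.78 on the wild type arrays. All 3 trh null arrays were low and the groups did not overlap. Kkv fell by 0.44 in mean log2 signal (SE 0.08, 95% interval -0.64 to -0.25, limma adjusted p = 0.0189). This call was lost without any 1 of the trh null arrays (adjusted p from 0.0728 to 0.0833) and without wild type replicate 1 (adjusted p = 0.0567), while the difference stayed between -0.47 and -0.39 whichever array was left out.

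The other synthase, Chs2, makes the chitin of the peritrophic matrix that lines the midgut. Its signal was 6.79, 6.67 and 6.75 in trh null embryos, against 6.95, 7.17 and 6.66 in wild type embryos. Wild type replicate 3 lay at the level of the mutants and replicate 2 above all other arrays, so the groups overlapped. The log2 difference of -0.19 had a 95% interval from -0.52 to 0.14 (limma adjusted p = 0.424), which includes the fall measured for kkv.

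The mummy gene mmy encodes UDP-N-acetylglucosamine pyrophosphorylase, the last enzyme on the way to the sugar donor. It gave 9.82, 10.12 and 10.13 in trh null embryos, against 10.29, 10.56 and 10.43 in wild type embryos. All trh null arrays were below all wild type arrays. The log2 difference was -0.40 (SE 0.12, 95% interval -0.69 to -0.11), close in size to that of kkv, but with the wider spread it did not pass the test (limma adjusted p = 0.0855). It did not pass with any 1 array left out.

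The knickkopf gene knk encodes a membrane protein with a DOMON domain that is needed to order chitin fibres. Its signal was 9.86, 10.11 and 10.08 in trh null embryos, against 10.35, 9.74 and 10.40 in wild type embryos. Wild type replicate 2 was the lowest of all 6 arrays and the other wild type arrays were the highest. Over all arrays the log2 difference was -0.14 (95% interval -0.60 to 0.31, limma adjusted p = 0.685). Without wild type replicate 2 it was -0.35 and knk passed as lower (adjusted p = 0.0404).

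The deacetylases serp (serpentine) and verm (vermiform) are secreted into the tracheal lumen and are also found in epidermal cuticle, and both limit tube length. In the Release 6 annotation they lie next to each other on arm 3L, with no gene annotated wholly between them. Serp gave 12.08, 12.30 and 12.27 in trh null embryos, against 12.60, 12.46 and 12.33 in wild type embryos. The highest trh null array and the lowest wild type array differed by far less than either group's range, although the groups did not overlap. The log2 difference of serp was -0.25 (SE 0.11, 95% interval -0.50 to 0.007, limma adjusted p = 0.198).

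For verm the signal was 11.60, 11.81 and 11.82 in trh null embryos, against 12.10, 11.98 and 12.10 in wild type embryos. The groups did not overlap. The log2 difference was -0.32 (SE 0.09, 95% interval -0.54 to -0.09), and verm did not pass over all arrays (limma adjusted p = 0.0819). It passed as lower without wild type replicate 2 (log2 difference -0.36, adjusted p = 0.0319). The log2 ratio of serp to verm changed by 0.07 between genotypes, with overlapping groups (SD 0.02 in trh null and 0.15 in wild type embryos, exact two-sided permutation p = 0.9, n = 3 arrays each).

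Cda4 had the largest difference of the 9 genes over all arrays. It gave 9.89, 10.15 and 10.15 in trh null embryos, against 10.95, 10.81 and 11.35 in wild type embryos. All 3 trh null arrays were low, and the groups did not overlap. Cda4 fell by 0.97 in mean log2 signal (SE 0.16, 95% interval -1.36 to -0.59, limma adjusted p = 0.0135). It did not pass when any 1 trh null array was left out (adjusted p from 0.0584 to 0.0620), whereas the call held when any 1 wild type array was left out (0.0029 to 0.0355). It was also lost with unmoderated variances (adjusted p = 0.0727).

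The fall of Cda4 was set against those of kkv, serp and verm through the change of the log2 ratio within arrays. These ratios were chosen after the values were seen. As Cda4 had the largest fall, their negative sign follows from that choice and they describe the size only. Relative to kkv, Cda4 was lower by a log2 ratio of -0.53 in trh null than in wild type embryos, relative to serp by -0.73 and relative to verm by -0.66. In each of these 3 ratios the genotypes did not overlap, and how often ratios of other gene pairs do so was not tested. The exact two-sided permutation p was 0.1 for each, which is the smallest that 3 arrays against 3 can give, and 0.133 after adjustment over 4 such ratios. Without wild type replicate 2 the changes were -0.62, -0.84 and -0.73.

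Cda5 gave 8.27, 8.69 and 8.83 in trh null embryos, against 9.51, 6.68 and 9.54 in wild type embryos. Wild type replicates 1 and 3 were above, and replicate 2 below, all 3 trh null arrays. The wild type SD was 1.64, against 0.29 in trh null embryos, and the log2 difference over all arrays was 0.02 with a 95% interval from -1.82 to 1.87 (limma adjusted p = 0.990). Without wild type replicate 2 Cda5 passed as lower, by -0.93 on the log2 scale (95% interval -1.32 to -0.53, adjusted p = 0.00806). With wild type replicate 1 or 3 left out instead the difference was 0.49 and 0.51, and neither passed (adjusted p = 0.767 and 0.737). Leaving out a trh null array gave values between -0.09 and 0.19, so over all arrays Cda5 had no settled direction.

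Cda9 was dim, with a signal below the array's median on all 6 arrays. It gave 5.52, 5.39 and 5.38 in trh null embryos, against 5.63, 5.54 and 5.65 in wild type embryos. The groups did not overlap, by a narrow margin. The log2 difference was -0.18 (SE 0.08, 95% interval -0.37 to 0.013, limma adjusted p = 0.215). Whether this signal lies above background was not tested.

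**Figure D2:**
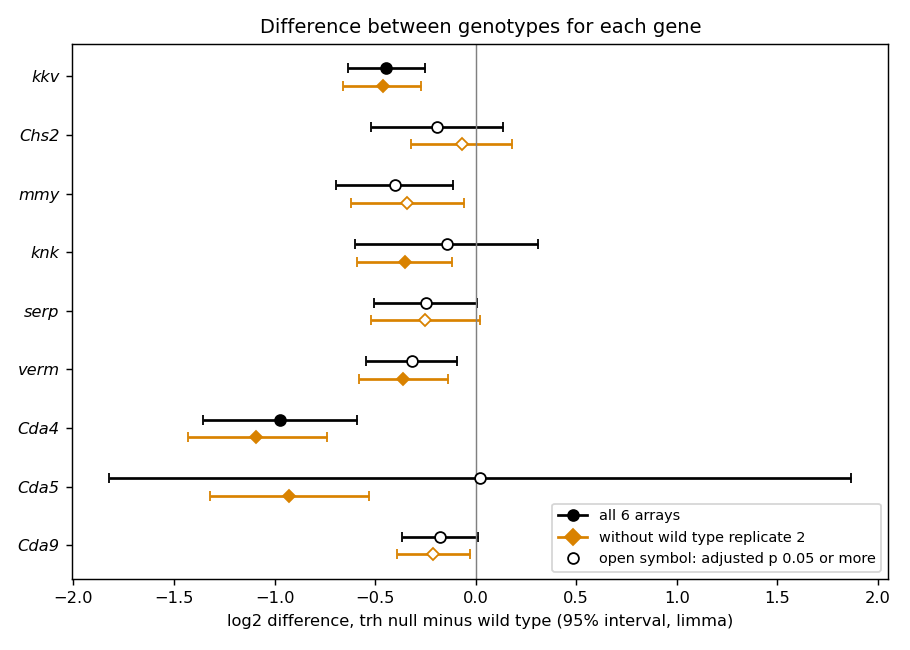
The log2 difference of each gene, trh null minus wild type, is drawn with its 95% interval from limma for all 6 arrays (circles) and without wild type replicate 2 (diamonds), filled where the adjusted p was under 0.05. The interval of Cda5 shrinks from -1.82 to 1.87 over all arrays to -1.32 to -0.53 without that array, while the pairs of kkv, mmy, serp, verm and Cda9 nearly coincide.

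Without wild type replicate 2, 5 of the 9 genes fell (kkv, knk, verm, Cda4 and Cda5) and none rose, beside 14.8% of all genes that fell, 17.4% that rose and 32.2% that changed in either direction in that fit. The median of the 9 log2 differences was then -0.35, and 0.03 over all genes. Leaving out trh null replicate 1, 2 or 3 left no gene of the 9 past the threshold. Leaving out wild type replicate 1 left Cda4 alone, and leaving out wild type replicate 3 left kkv and Cda4. Calls shrank over the whole table too. Of 18769 probe sets 2219 passed over all arrays, and 845, 736 and 704 without trh null replicates 1, 2 and 3. Without wild type replicate 1 or 3 the count was 1658 or 1680. Within the groups, wild type replicate 2 was the lowest wild type array for 6 of 9 genes, against 32.9% of all genes. Trh null replicate 1 was the lowest trh null array for 7 of 9 genes, against 38.6% of all genes, the exceptions being Chs2 and Cda9.

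**Figure D3:**
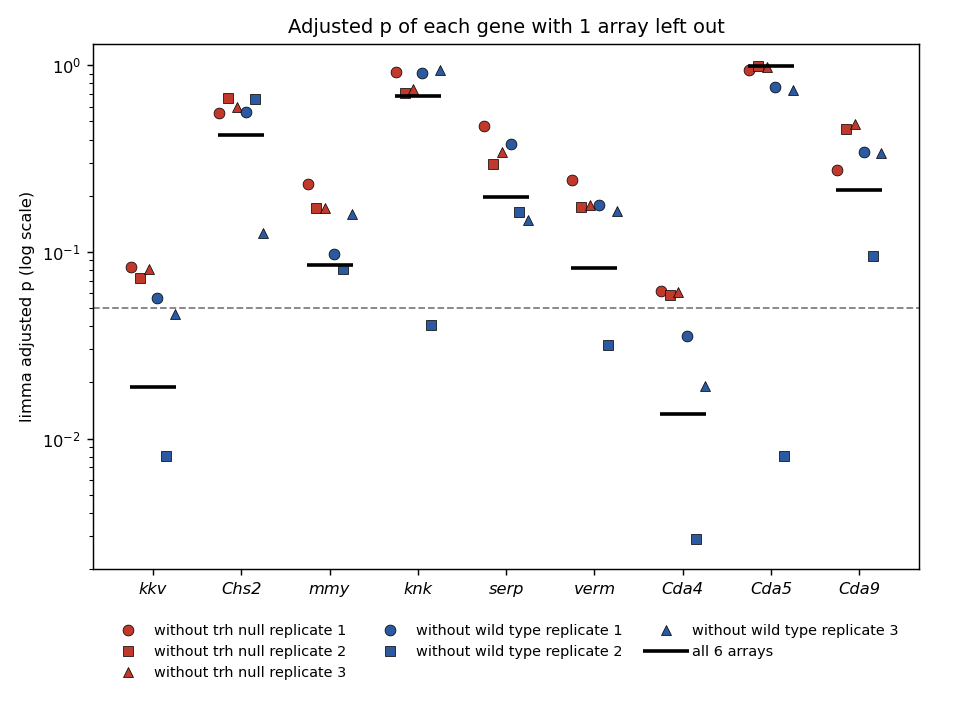
The limma adjusted p of each gene is plotted on a log axis for all 6 arrays (black bars) and with each array left out in turn (red for a trh null array, blue for a wild type array); the dashed line is 0.05. With a trh null array left out no gene lies under the line, and with wild type replicate 2 left out kkv, knk, verm, Cda4 and Cda5 do.

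The genes with the most similar pattern over the 6 arrays were taken by Pearson's r of log2 signal, among 7738 genes with a signal above the median. A gene that differs between the genotypes in the same direction scores high by construction, so these values describe the arrays only. For kkv they were CG15611 (r = 0.994), Osi15 (0.993), Osi20 (0.993), CG31087 (0.992) and CG16758 (0.991). All 5 fell in trh null embryos, by 0.41 to 6.03 on the log2 scale, so the likeness is in shape and not in size. For verm they were TwdlL (r = 0.995), CG18549 (0.993), slow (0.992), Tsp42Eq (0.991) and Amph (0.990), of which Amph passed the test as lower. TwdlL encodes a Tweedle cuticle protein and had a log2 difference of -1.74 (limma adjusted p = 0.0505).

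Upstream of the synthase, the list for UDP-N-acetylglucosamine synthesis and use held 6 measured genes, of which 1 rose, none fell and 5 did not pass, beside 6.79% of all genes that rose. The gene that rose, Gnpnat, encodes the acetyltransferase that acts before mmy in the pathway. Its brightest probe set gave 11.55, 11.57 and 11.59 in trh null embryos, against 10.72, 11.08 and 10.53 in wild type embryos, a log2 difference of 0.79 (SE 0.15, limma adjusted p = 0.0195). Its other 2 probe sets rose by 0.80 and 0.91, so all 3 moved alike, opposite in sign to mmy. The probe set that rose by 0.80 was dim, at 3.68 to 4.84, below the array medians of 6.16 to 6.22. The call of the brightest did not survive the removal of any 1 trh null array (adjusted p from 0.0794 to 0.0934) or of wild type replicate 1 (0.0603). Gfat1, for the enzyme of the first committed step, had a log2 difference of -0.41 (adjusted p = 0.500), and without wild type replicate 2 it passed as lower by -0.82 (adjusted p = 0.00248). The dimmer probe set of Gfat1 differed by 0.26 (adjusted p = 0.406). Gfat2, for the same step, differed by 0.21 over all arrays (adjusted p = 0.439) and passed as higher, by 0.38, without wild type replicate 2 (adjusted p = 0.0128). The median of the list was 0.15.

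In the list of synthases and assembly genes 2 of 7 measured genes fell and none rose, beside 7.31% of all genes that fell. Apart from kkv this was exp (expansion), which together with its relative reb (rebuttal) is needed for the synthase to deposit chitin in tracheal tubes. The brighter probe set of exp gave 9.27, 9.58 and 9.59 in trh null embryos, against 10.44, 10.17 and 10.58 in wild type embryos. Exp fell by 0.92 in mean log2 signal (SE 0.14, limma adjusted p = 0.0116), and its second, dim probe set differed by -0.004 (adjusted p = 0.985). The call was lost without trh null replicate 2 or 3 (adjusted p = 0.0506 and 0.0502). For reb the signal was 6.22, 6.72 and 7.06 in trh null embryos, against 8.70, 7.21 and 8.64 in wild type embryos. The genotypes of reb did not overlap, with a log2 difference of -1.52 that did not pass (adjusted p = 0.0773) and that passed as -2.00 without wild type replicate 2 (adjusted p = 0.00171).

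Downstream, 1 of 12 measured genes of chitin degradation fell and none rose, again beside 7.31% of all genes that fell. This was Cht5, a chitinase gene, at 5.58, 5.89 and 5.89 in trh null embryos, against 10.12, 10.22 and 9.93 in wild type embryos. The fall of Cht5, 19.7-fold (limma adjusted p = 7.57e-05), held with each array left out. Its trh null signals lay below the array medians of 6.16 to 6.22. Whether they lie above background, on which the fold change depends, was not tested. Without wild type replicate 2, 3 genes of this list fell and 1 rose, beside 14.8% and 17.4% of all genes. Besides Cht5, Cht6 fell by 1.47 (limma adjusted p = 0.00467) and Cht7 by 1.02 (0.00103), and Cht11 rose by 0.33 (0.0435). The median of the list over all arrays was -0.12. Among 14 chitin-binding matrix proteins 4 fell and none rose, beside the same share of 7.31% of all genes: Gasp by 1.53, obst-B by 1.46, obst-H by 0.99 and Peritrophin-A by 0.82 on the log2 scale (limma adjusted p = 0.00434, 0.00129, 0.0237 and 0.0265). The calls for Gasp and obst-B held with each array left out, while obst-H and Peritrophin-A did not pass when any 1 trh null array (adjusted p from 0.0875 to 0.107) or wild type replicate 1 (0.0550 and 0.0569) was left out. The largest difference of the list, -1.58 for obst-E, did not pass (limma adjusted p = 0.0648), nor did its second probe set at -1.49 (0.0815). Without wild type replicate 2 the brightest probe set of obst-E passed as -1.95 (0.00757). The median of the list was -0.34, and -0.63 without wild type replicate 2.

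Secretion of serp and verm into the lumen needs septate junctions, the occluding junctions of insect epithelia. Of 16 measured junction genes 1 fell and 1 rose in trh null embryos, beside 7.31% and 6.79% of all genes, with a median log2 difference of 0.07. A further probe set of Nrg, outside this count, rose by 0.76 (limma adjusted p = 0.0467), while its brightest differed by 0.32 (0.351). The gene nrv2, for a Na,K-ATPase beta subunit, fell by 1.40 (SE 0.12, limma adjusted p = 0.00192). The claudin gene pck rose by 0.47 (SE 0.09, adjusted p = 0.0244), a call lost with any 1 trh null array (0.0959 to 0.115) or wild type replicate 3 (0.0631) left out. The probe sets of nrv2 and pck are of a kind whose probes may match transcripts of other genes too. So are those of Gfat1, Peritrophin-A and the muscle marker Tm2, and the vvl probe set that rose. Over the 6 lists together, which include the 9 genes, 9 of 60 genes fell and 2 rose, beside 7.31% and 6.79% of all genes. Without wild type replicate 2 these counts were 19 and 4, beside 14.8% and 17.4% of all genes, so calls grew over the whole table too.

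**Figure D4:**
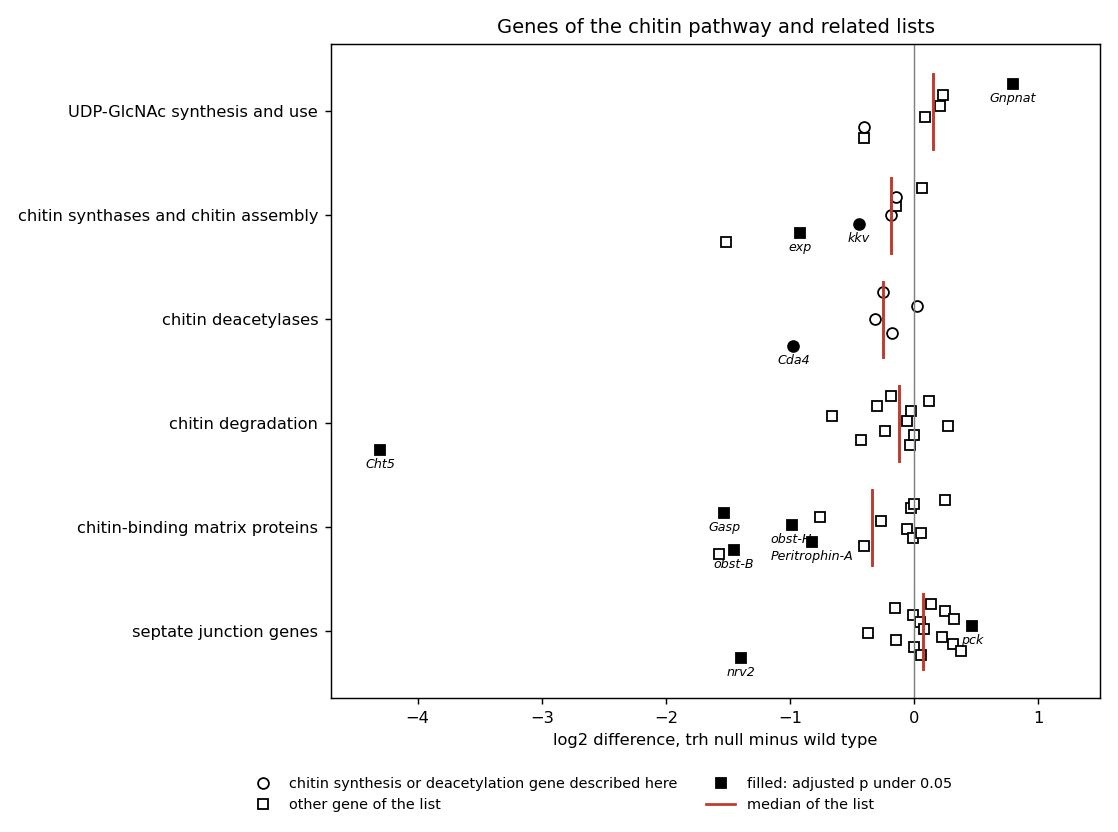
Each symbol is the log2 difference, trh null minus wild type, of 1 gene by its brightest probe set, in 6 lists (rows), filled where the limma adjusted p was under 0.05 and with a red line at the median of the list. Cda4 at -0.97 and kkv at -0.44 lie between the chitin-binding protein genes Gasp and obst-B on the left and most genes of each list near 0, and Gnpnat lies on the opposite side at 0.79.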

How the data were processed

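The deposited values were RMA signals on a log2 scale per the submitters' processing notes, which name RMA and Partek without versions; base 2 was inferred from the range. Labelling started at the 3′ end of RNA per the labels' protocols. As generally run, RMA equalises array distributions, so a change shared by all transcripts would be hidden. The scanner files were not analysed here. Of 18952 probe sets, 183 controls were left out. The platform annotation named 1 gene for 13647 probe sets, several for 402 and none for 4720; probe sets with several names were not used for genes. By gene identifier 13544 matched the RefSeq table of Release 6. A gene was represented by its brightest probe set, and 1094 genes had more than 1.

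A linear model per probe set, with a term for genotype alone, was fitted in limma 3.58.1 (lmFit, eBayes; R 4.3.3). P-values were adjusted over 18769 probe sets, with 0.05 as threshold; the code was tested on simulated data. "Rose", "fell" and "passed" refer to this. The members and gene lists were chosen with earlier results of these data known, so list counts are descriptions. All members were named, with up to 4 genes per list that passed and the 5 genes most like kkv and verm. The ratios between members, the markers named singly and the second probe sets were chosen after their values were seen. So were reb, Gfat1, Gfat2, obst-E, Cht6, Cht7 and Cht11. Listed genes without a probe set of their own, among them rtv and nst, were not analysed here. The alternatives were other variance priors, array weights, 3 normalizations, a filter on dim probe sets, the mean over probe sets, the replicate block, a stricter threshold and leaving out each array. The 3 arrays per genotype limit the precision.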

Additional observations from a re-analysis of the deposited data

How the results depend on the processing

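The count of 2 chitin genes past the threshold, both lower, was the same with a trend and robust prior, quantile normalization, median centring, cyclic loess, the filter on dim probe sets (Cda9 gave no value there) and the mean over probe sets. It was 1 with unmoderated variances or the replicate block, 5 with array weights and 0 at an adjusted p under 0.01, and ran from 0 to 5 with 1 array left out. Over the 6 lists the count of 11 became 5 with unmoderated variances or the replicate block, 24 with array weights and 4 at an adjusted p under 0.01, and ran from 4 to 23 with 1 array left out. Over all probe sets the count of 2219 became 949 with unmoderated variances, 6003 with array weights, 726 with the replicate block and 738 at an adjusted p under 0.01, and ran from 704 to 5001 with 1 array left out. Leaving out an array also leaves fewer arrays to test, and the cause of the other changes was not tested. Of the 9 chitin genes only Cda5, at 0.02 over all arrays, changed sign: -0.73 with array weights, -0.04 with quantile normalization, -0.03 with cyclic loess, and -0.93, -0.09 and -0.03 without wild type replicate 2, trh null replicate 3 and trh null replicate 2 (0.51 at the other end, without wild type replicate 3). Array weights, which lower the weight of arrays that fit poorly, made serp (limma adjusted p = 0.0292), verm (0.0145) and Cda9 (0.0341) pass as lower. Deviations of same-numbered arrays from their group means correlated at -0.37, -0.06 and -0.05, and no trh null array correlated best with its own number. Deviations from a mean of 3 arrays depend on each other, so these values cannot show whether the replicate numbers pair the arrays. With the replicate block kkv did not pass (adjusted p = 0.0987) and Cda4 did (0.0479), while with unmoderated variances Cda4 did not pass (0.0727) and kkv did (0.0405). The 3 arrays per genotype and the dim signal of Cda9 limit what can be seen.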
